A study of Bos taurus with 40 samples.

Results

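In the liver of growing Holstein Friesian bulls, 90 of the 24616 genes counted differed between the end of Period 1 and the end of Period 2 in the same direction in both diets. Of these, 84 had the higher mean level in Period 2 (rising members) and 6 had the lower mean level (falling members). Read counts were scaled to a fixed total of reads on genes per library (CPM, counts per 1000000), and the mean of log2(CPM + 1) was taken over the animals of each group. Members were chosen by these means. A gene was a member when Period 2 minus Period 1 was at least 0.5 in size, with the same sign, in both diets, when RES and ADLIB differed by less than 0.35 in mean log2(value + 1) in the deposited normalised tables of Period 1, and when its mean CPM over all animals was at least 1 and below 1000. The period differences of both diets and the Period 1 diet difference therefore chose the members, and they are given below as descriptions. Where counts of calls in the period contrasts are printed, nothing is read from them.

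All animals were male purebred bulls offered the same diet of 70 % concentrate and 30 % grass silage, and hepatic mRNA was sequenced from 10 animals in each of 4 groups. ADLIB bulls were fed ad libitum throughout, whereas RES bulls were restricted for 125 days to grow at 0.6 kg/day (Period 1) and were then fed ad libitum for 55 days (Period 2). Samples represent day 125 of Period 1 and day 55 of Period 2. According to the methods, different animals were slaughtered at each time, while the text filed with the samples speaks of biopsies. The diets had been balanced for weight, age, sire and earlier gain at the start. No such balance is stated between the bulls slaughtered at the end of each period. Bulls of Period 2 were 55 days further into the trial and were sampled on a later day. They carried library names with serial numbers from 31 to 59, against 1 to 30 in Period 1. Age, season, day of slaughter and handling of the libraries cannot be told apart from period in this design. In RES the periods also differed in feeding level, but in ADLIB they did not.

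The liver takes up the nutrients absorbed from the gut, stores and releases glucose and lipid, makes most plasma proteins and clears drugs and hormones. Hepatocytes form most of its mass, together with endothelial, stellate, biliary, resident macrophage and lymphoid cells, and each of these adds its own transcripts to a whole-tissue library. The hepatic transcriptome is known to follow feed intake, age, sex hormones, time of day and inflammation. In bulk tissue, fewer cells of a type and less RNA per cell cannot be told apart. As genes carry Ensembl identifiers without names in the tables, the tissue label could not be checked against liver markers, no pathway could be assigned, and at most 4 members are printed by identifier.

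Each library held 8656866 to 15520237 reads on genes (median 10878102.5), a number that did not differ beyond its spread between periods in ADLIB (two-sided permutation test, p = 0.234, adjusted over 4 tests 0.313) or in RES (p = 0.395). The percentage of reads that fell on genes moved in opposite directions in the diets. In ADLIB it was 78.1 ± 1.07 (SD, n = 10) in Period 1 and 76.6 ± 1.33 in Period 2 (permutation test, p = 0.00852, adjusted p = 0.0341). In RES it was 75.8 ± 1.79 in Period 1 and 77.7 ± 1.55 in Period 2 (permutation test, p = 0.0212, adjusted p = 0.0425). The ranges of the periods overlapped in both diets.

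Of the 24616 genes, 12215 met the limits on mean CPM and 10203 of these also met the limit on the Period 1 diet difference. Among the 10203, 319 differed by at least 0.5 between periods in ADLIB (297 of them higher in Period 2) and 593 did so in RES (461 higher). The 90 members were 28.2 % of the former and 15.2 % of the latter, and 2 further genes passed the size limit in both diets with opposite signs. A further 49 genes shifted alike in both diets but were left out by the Period 1 diet limit, 10 of them because the Period 1 normalised tables held no value for them. Across the 10203 genes the period differences of the diets had a Pearson correlation of 0.40 and a Spearman correlation of 0.38. These correlations are across genes, which are not independent replicates, and the animals of each period share their labelled day of sampling and library serial range. The genes had also passed the limit on the Period 1 diet difference, which can favour like period differences. No correlation without that limit is given.

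**Figure D1:**
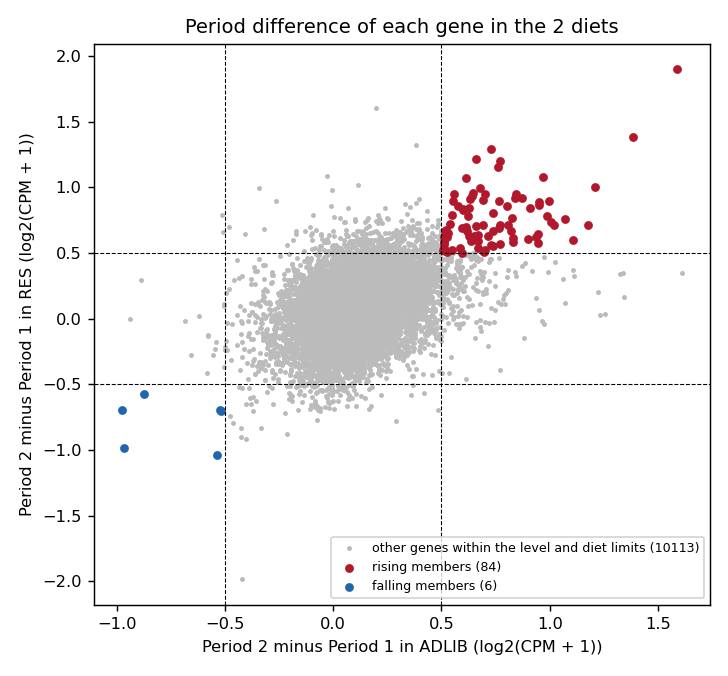
Difference in mean log2(CPM + 1) between Period 2 and Period 1 for each of the 10203 genes within the level and diet limits, in ADLIB (horizontal axis) and RES (vertical axis). Dashed lines mark 0.5 in either direction, red points are the 84 rising members, blue points the 6 falling members, and few genes lie in the lower left corner compared with the upper right.

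In rising members the median difference between periods on the log2(CPM + 1) scale was 0.70 in ADLIB (range 0.51 to 1.59) and 0.71 in RES (0.50 to 1.90). The difference was larger in RES in 45 of the 84. The rule set the same lower limit and the same sign in both diets, so it favours like medians. For the falling members the median was -0.71 in ADLIB (-0.98 to -0.52) and -0.70 in RES (-1.04 to -0.58), with the larger size in RES in 4 of the 6. A difference of at least 1 in both diets was found in 3 rising members and 0 falling members. The members nearest to the limit had smaller differences of 0.501, 0.503 and 0.508, and the nearest genes outside it had 0.499, 0.499 and 0.498.

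Scaling to total reads on genes put the median of all 10203 genes above 0, at 0.11 in ADLIB and 0.097 in RES, so part of each rise is shared with genes at large. With edgeR's TMM factors, which set each library against the bulk of its genes, the medians of the 11716 genes that were within the level limit and fitted were -0.0036 in ADLIB and 0.016 in RES. On that scale every member kept its sign, with medians of 0.58 in ADLIB and 0.62 in RES for rising members and -0.80 and -0.79 for falling members. The excess of rising over falling members was smaller, because the same rule on the TMM scale gave 72 members of which 55 rose and 17 fell (76.4 % rising, against 93.3 % on total reads), and 61 of the 72 were among the 90.

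Most members rested on a moderate number of reads. Mean CPM was under 10 in 25 rising members, from 10 to 100 in 53 and above 100 in 6, whereas 4 falling members were under 10 and 2 between 10 and 100. A mean CPM under 10 was found in 32.2 % of the members and in 42.3 % of the 10203 genes. CPM is not divided by gene length and is compared here within a gene and not between genes. At least 4 reads in every animal were present for 86 of the 90 members (81 rising, 5 falling), and these were fitted across all 40 animals.

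Summed over the 84 rising members, CPM was 2042 ± 385 (SD, n = 10) in ADLIB and 2122 ± 604 in RES in Period 1. In Period 2 the sum was 3670 ± 1053 in ADLIB and 3672 ± 743 in RES. The diets had sums within their spread of each other at both times. The rule favours this in Period 1 by its limit on the diet difference. It does so in Period 2 by also asking for shifts of the same sign. The 6 falling members summed to 137 ± 26.4 and 157 ± 19.4 in ADLIB and RES in Period 1, and to 86.0 ± 12.1 and 92.3 ± 21.3 in Period 2.

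Individual bulls differed in how far they followed the pattern. Averaged over rising members, log2(CPM + 1) had a lowest, median and highest value of 3.39, 3.74 and 3.99 in ADLIB in Period 1 and of 3.87, 4.61 and 4.87 in Period 2. In RES these were 3.29, 3.69 and 4.26 in Period 1 and 4.03, 4.47 and 4.95 in Period 2. The periods overlapped in both diets, since 2 ADLIB bulls of Period 2 (replicates 4 and 8) and 1 RES bull (replicate 8) lay within the range of Period 1. Averaged over falling members, the level was 3.15, 3.54 and 4.07 in ADLIB in Period 1 and 1.97, 2.92 and 3.40 in Period 2. In RES it was 3.41, 3.63 and 4.17 in Period 1 and 2.29, 2.99 and 3.44 in Period 2. Here 3 ADLIB bulls (replicates 7, 8 and 9) and 1 RES bull (replicate 6) of Period 2 remained within the Period 1 range.

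**Figure D2:**
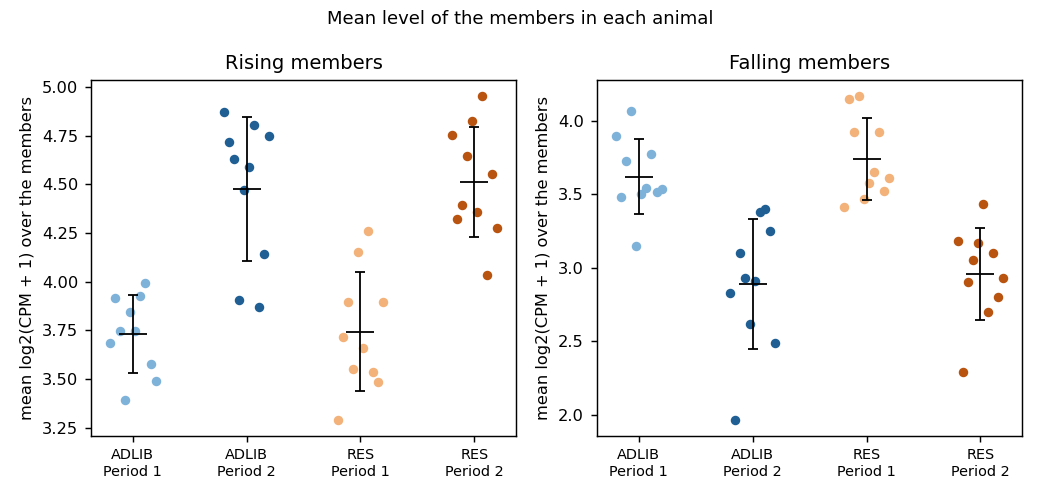
Mean log2(CPM + 1) of each animal over the 84 rising members (left) and the 6 falling members (right), by diet and period, with bars for the group mean and SD (n = 10). ADLIB bulls of Period 2 with a low rising mean, replicates 4 and 8, lie inside the Period 1 range, and 1 RES bull does likewise.

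The number of rising members above the Period 1 median of the same diet was counted in each Period 2 bull. It ranged in ADLIB from 53 of 84 (replicate 4) to 84 (replicate 1), with a median of 79.5, and the next lowest bull was replicate 8 with 57. In RES it ranged from 67 (replicate 2) to 83 (replicate 5), with a median of 77.5. Fewer members exceeded the highest Period 1 bull, with 9 to 70 per bull in ADLIB (median 55.5) and 13 to 57 in RES (median 31.5). Among falling members, 4 to 6 of the 6 were below the Period 1 median in each ADLIB bull and 5 to 6 in each RES bull. Members were chosen by the period difference of these same bulls, so the rule favours high counts. No share over all genes is given beside these counts, and nothing is read from them.

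**Figure D3:**
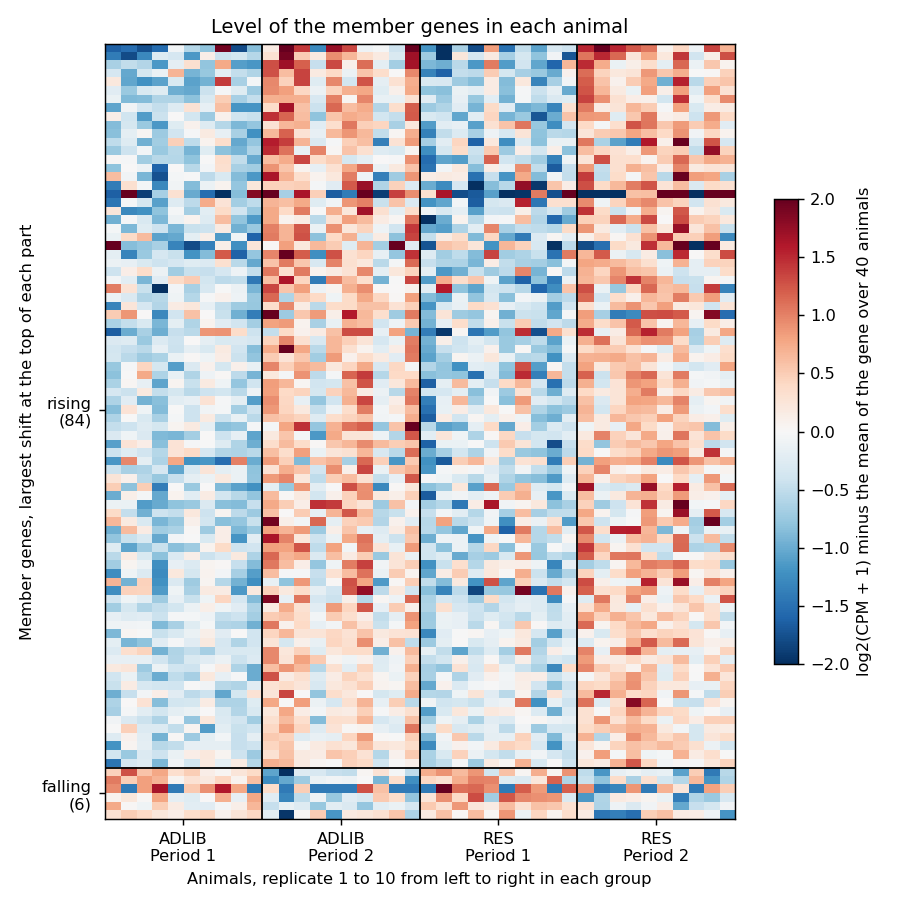
Level of each of the 90 members (rows, rising above falling, ordered by the size of the shift) in each of the 40 animals (columns), as log2(CPM + 1) minus the mean of that gene over the 40 animals, with colours ending at 2 in either direction. Period 2 columns are mostly red for rising and blue for falling members in both diets, columns 4 and 8 of ADLIB in Period 2 are paler, and a few rows vary strongly within every group.

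Separation of the periods was seldom complete for a single gene. In ADLIB, 1 of the 84 rising members had every Period 2 bull above every Period 1 bull, where 0.0758 % of the 11868 genes fitted did so, and in RES this held for 0 rising members (0.497 % of genes). No falling member had separate ranges in either diet (0 % of genes in ADLIB and 1.23 % in RES had Period 2 wholly lower). The median number of Period 2 bulls beyond the Period 1 range was 6 of 10 in ADLIB and 4 of 10 in RES for rising members. For falling members it was 5.5 and 3.5. The rule favours such numbers, and no share over all genes is given beside these medians. The member with separate ranges in ADLIB had 10.2 to 21.6 CPM in Period 1 (median 17.5) and 23.0 to 32.0 in Period 2 (median 24.4). In RES it had 7.50 to 23.1 CPM in Period 1 (median 17.2) and 15.9 to 29.1 in Period 2 (median 24.8). It was singled out after its values were seen.

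The members printed by identifier are those with the largest smaller one of their 2 period differences in each direction. ENSBTAG00000002333 was the rising member with the largest shift, 1.59 in ADLIB and 1.90 in RES on the log2(CPM + 1) scale. Its CPM had a lowest, median and highest value of 3.25, 5.63 and 55.2 in ADLIB in Period 1 and of 5.11, 25.8 and 74.5 in Period 2. In RES these values were 2.05, 7.18 and 25.3 in Period 1 and 12.7, 31.9 and 72.5 in Period 2. The ADLIB ranges overlapped across most of their length owing to a single Period 1 bull at 55.2 CPM, so only 2 Period 2 bulls exceeded the Period 1 range there, against 6 in RES. The log2 fold change fitted by edgeR was 1.38 (SE 0.51) in ADLIB and 1.86 (SE 0.52) in RES. The SE of a log2 fold change, here and below, is its size over the square root of the F statistic of edgeR's test. It was derived from that test and is not a value edgeR reports.

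ENSBTAG00000016169 shifted by 1.38 in ADLIB and 1.39 in RES. In ADLIB it had 5.22 to 22.4 CPM in Period 1 (median 14.1) and 16.3 to 79.2 in Period 2 (median 27.7). In RES it had 3.73 to 24.1 CPM (median 14.1) and 15.4 to 59.6 (median 40.1). Of the 10 Period 2 bulls, 9 in ADLIB and 7 in RES lay above every Period 1 bull of their diet. edgeR's log2 fold change was 1.39 (SE 0.31) in ADLIB and 1.32 (SE 0.31) in RES.

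Among falling members, ENSBTAG00000008294 differed by -0.97 in ADLIB and -0.98 in RES. In ADLIB its CPM lay between 19.1 and 46.3 in Period 1 (median 25.4) and between 3.37 and 23.1 in Period 2 (median 14.0). In RES it lay between 13.9 and 35.7 (median 30.4) and between 6.35 and 26.7 (median 14.5). In ADLIB 8 Period 2 bulls were below the whole Period 1 range and in RES 5 were. edgeR's log2 fold change was -1.05 (SE 0.24) in ADLIB and -1.09 (SE 0.24) in RES.

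ENSBTAG00000046773 differed by -0.98 in ADLIB and -0.70 in RES. In ADLIB it had 8.39 to 17.7 CPM in Period 1 (median 11.5) and 2.78 to 10.5 in Period 2 (median 5.91), with 9 of 10 Period 2 bulls below the Period 1 range. In RES it had 4.99 to 19.6 CPM (median 10.6) and 3.01 to 13.2 (median 5.39), with 3 of 10 below. The lowest Period 1 bulls of RES were lower than those of ADLIB. edgeR's log2 fold change was -1.13 (SE 0.27) in ADLIB and -0.89 (SE 0.26) in RES.

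**Figure D4:**
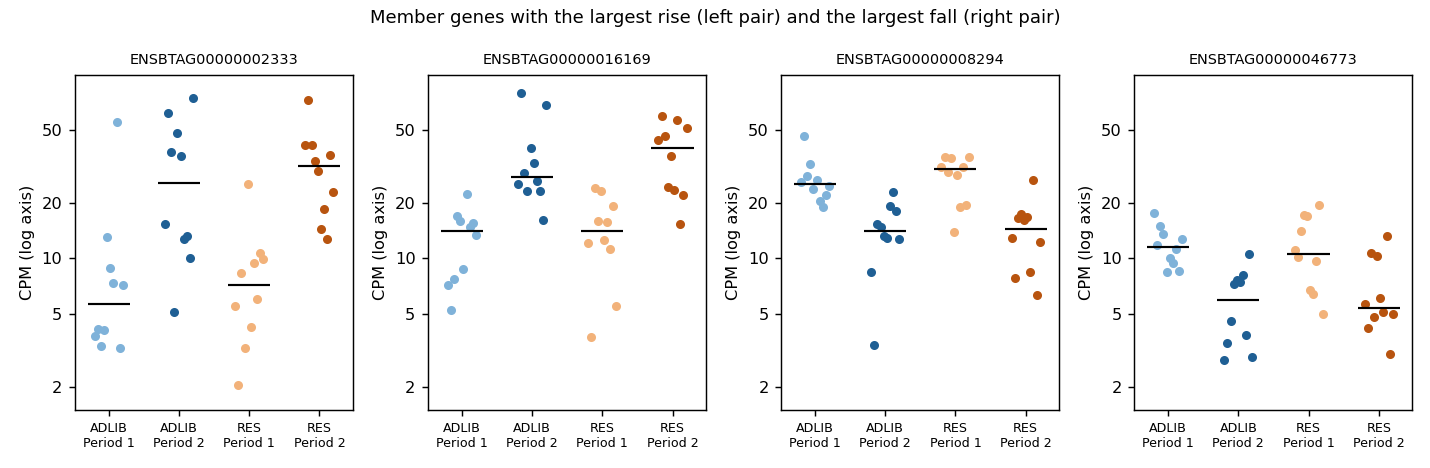
CPM on a log axis of the 2 rising and 2 falling members printed by identifier, by diet and period, with 1 point per animal and a bar at the group median (n = 10). Medians of the first rising gene went from 5.63 to 25.8 in ADLIB and from 7.18 to 31.9 in RES, with 1 ADLIB bull of Period 1 at 55.2.

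The remaining falling members had smaller differences in at least 1 diet. The falling member with the most reads had 61.8 to 123 CPM in ADLIB in Period 1 (median 76.3) and 42.3 to 66.2 in Period 2 (median 59.8). In RES it had 81.5 to 134 CPM (median 97.2) and 35.4 to 89.3 (median 63.8). It had the smallest standard error of the falling members, with a log2 fold change of -0.67 (SE 0.14) in ADLIB and -0.78 (SE 0.14) in RES. A further falling member had log2 fold changes of -0.77 (SE 0.30) in ADLIB and -1.44 (SE 0.29) in RES. Another had -0.55 (SE 0.31) and -0.75 (SE 0.31), and the last was not fitted, since it had 0 reads in 3 bulls of each group but ADLIB in Period 2, where 6 bulls had 0. A count of 0 allows up to 3 reads, or 0.193 to 0.347 CPM depending on the library, for counting error only.

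A few rising members varied widely within every group. The widest had 0.474 to 129 CPM over the 40 bulls, a range of 6.46 on the log2(CPM + 1) scale against a median range of 2.69 for rising members. In ADLIB its lowest, median and highest CPM were 0.831, 3.83 and 81.8 in Period 1 and 1.49, 14.2 and 129 in Period 2. In RES they were 1.15, 2.59 and 61.5 in Period 1 and 0.474, 12.8 and 95.2 in Period 2. Low and high bulls occurred in all 4 groups. Its log2 fold change was 0.99 (SE 0.92) in ADLIB and 1.08 (SE 0.93) in RES. It was chosen for its range after its values were seen.

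Within a group the biological coefficient of variation estimated by edgeR had a median of 0.355 in the 81 rising members fitted and 0.397 in the 5 falling members, against 0.183 in the 11630 other genes within the level limit. The rule takes a difference of means with no regard to spread.

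In the fit across 40 animals, a gene was called when its FDR was below 0.05 and its difference at least 25 %. In ADLIB, 31 of the 86 members fitted were called (28 higher and 3 lower in Period 2), where 2.28 % of the 11868 genes were (1.67 % higher and 0.607 % lower). In RES, 56 members were called (52 higher, 4 lower), where 23.1 % of genes were (10.6 % higher and 12.5 % lower). At an unadjusted p under 0.05 there were 70 members in ADLIB (17.5 % of genes) and 78 in RES (39.8 % of genes). The rule used both contrasts and so fixed much of these counts. With total reads in place of TMM the calls of all genes turned to higher values, from 198 higher and 72 lower to 775 and 26 in ADLIB, and from 1263 and 1483 to 1983 and 907 in RES, and the members called were 53 in ADLIB and 61 in RES.

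The ADLIB counts depended on what else was in the fit. With the share of reads falling on genes as a covariate, 8 members were called in ADLIB and 60 in RES, and with a block for the leading number of the library name 4 were called in ADLIB and 57 in RES. Over all 11868 genes the calls were 73 in ADLIB and 2790 in RES with the covariate and 58 and 2829 with the block, against 270 and 2746 without either. The median log2 fold change of rising members under these fits was 0.52 and 0.63 in ADLIB, compared with 0.65 without them, and 0.81 and 0.73 in RES, compared with 0.69. Falling members had medians of -0.69 and -0.87 in ADLIB and of -0.95 and -0.86 in RES.

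The leading number of the library names takes 4 values, whose meaning is not stated, and was not evenly spread. In ADLIB, number 2 held 0 bulls of Period 1 and 5 of Period 2, while number 1 held 3 and 1, number 3 held 3 and 3, and number 4 held 4 and 1. The rule used the same bulls, so the differences within a number divide up the shift and are no separate evidence of it. In ADLIB the median differences of rising members were 1.00 in number 1 (81 of 84 higher), 0.56 in number 3 (80 higher) and 0.99 in number 4 (78 higher), against 0.19, 0.12 and 0.13 for all genes. Numbers 1 and 4 rested on 1 Period 2 bull each. In RES, where every number held 2 or 3 bulls of each period, the medians were 0.84, 0.91, 0.67 and 0.63 for numbers 1 to 4, with 80, 83, 73 and 77 members higher, against 0.093, 0.26, 0.013 and 0.047 for all genes. The same direction in every number and both diets was found for 56 of 84 rising and 3 of 6 falling members. For all genes only medians are given here and no share with the same direction, so nothing is read from these counts of members. For falling members the median difference lay between -1.01 and -0.27 in ADLIB and between -1.09 and -0.52 in RES.

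Diets were then compared within Period 2, a contrast that the rule did not use directly. It is the Period 1 diet difference plus the difference between the period shifts, and the rule limited the former and asked for shifts of the same sign, so the rule favours small values and a low count. The question was whether bulls that had been restricted and bulls that had not differed in these genes after 55 days of ad libitum feeding. In edgeR's quasi-likelihood test on the 20 bulls of Period 2, 0 of the 88 members tested were called, and 0 of 12202 genes in all (0 %). At an unadjusted p under 0.05 there were 3 members and 1565 genes (12.8 %). DESeq2 called 52 genes, 0 of them members, and 4 members had an unadjusted p under 0.05, where 1624 of the 12202 genes did.

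The log2 fold change of RES over ADLIB in Period 2 ranged from -0.79 to 0.74 in the 83 rising members tested, with 41 higher and 42 lower in RES. Its median size was 0.11, and that of all genes 0.12, while the median standard error of the rising members was 0.22. The 5 falling members ranged from -0.24 to 0.17 (median -0.06). The smallest FDR was 0.330 among rising and 0.797 among falling members. Diet differences of the typical member were thus smaller than their own error with 10 bulls per diet, and a missed threshold does not show that the diets were alike.

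Values of the members with the smallest p in this contrast follow. The rising member with the smallest p had 22.0 ± 13.6 CPM in ADLIB (SD, n = 10) and 13.6 ± 4.18 in RES, a log2 fold change of -0.73 (SE 0.30, unadjusted p = 0.0228, edgeR FDR 0.330). Another had 59.8 ± 61.9 CPM in ADLIB and 35.7 ± 8.30 in RES (log2 fold change -0.79, unadjusted p = 0.0348, edgeR FDR 0.359). The member with separate period ranges in ADLIB was between them, with 26.0 ± 2.99 CPM in ADLIB and 23.3 ± 4.38 in RES (log2 fold change -0.21, SE 0.09, unadjusted p = 0.0281, edgeR FDR 0.344). For the printed members the log2 fold change in Period 2 was -2.4e-05 (SE 0.42) for ENSBTAG00000002333, 0.01 (SE 0.30) for ENSBTAG00000016169, -0.06 (SE 0.28) for ENSBTAG00000008294 and 0.17 (SE 0.28) for ENSBTAG00000046773, with edgeR FDR from 0.838 to 1.00.

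The difference between the period differences of the diets (the interaction) follows from values the rule used and is given as a description. It ranged from -0.73 to 0.88 in rising members (median 0.01) and from -0.67 to 0.24 in falling members. Of the 86 members 0 were called by edgeR and 0 had an unadjusted p under 0.05. Over the 11868 genes fitted, 9.45 % were called at an FDR under 0.05 and 24.6 % had an unadjusted p under 0.05. Members were required to shift alike in both diets, so a low count is what the rule selects.

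Members did not move as a single block from bull to bull. Deviations of log2(CPM + 1) from the group mean were correlated between genes over the 40 bulls, which leaves 36 degrees of freedom. The group means the rule used are thereby removed. Members still had a larger spread between bulls than other genes, and the genes set beside them were not matched for it. The part of the selection in the correlations below was not tested. The median correlation was 0.27 over the 3486 pairs of rising members, 90.8 % of them positive, and 0.10 over all pairs of the 11716 genes, 66.4 % positive. Pairs of falling members had a median of 0.13, and pairs of a rising and a falling member -0.12. The first principal component of the rising members held 31.3 % of their variance. All points share the depth and composition of their libraries.

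Of the pairs of rising members, 3.61 % (126 pairs) had a correlation of at least 0.7. Of the pairs of all genes 0.232 % did, again without matching for spread. Linking such pairs of rising members gave 5 groups of at least 3 members, of which the largest are described here. They were found from the values and have no test. A set of 26 members had a median correlation of 0.59 within it and median period differences of 0.68 in ADLIB and 0.63 in RES. A set of 15 members, which holds ENSBTAG00000002333, had a median correlation of 0.56 and larger median period differences, 0.94 in ADLIB and 0.87 in RES. The correlation between members of the different sets had a median of 0.24, close to that of rising members at large. The other 43 rising members belonged to neither set.

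The highest bull of each group was not the same in the 2 sets, but some bulls were high or low in both. ADLIB Period 2 replicate 4 was the lowest of its group in the set of 26 (3.98) and in the set of 15 (4.11). RES Period 2 replicate 7 was high in both (4.94 and 5.58). Mean log2(CPM + 1) over the set of 26 was highest in replicate 7 in ADLIB Period 1 (4.31), RES Period 1 (4.93) and ADLIB Period 2 (5.19), and in replicate 4 in RES Period 2 (5.09). Over the set of 15 it was highest in replicate 8 in ADLIB Period 1 (5.21), replicate 5 in RES Period 1 (5.02), replicate 2 in ADLIB Period 2 (5.83) and replicate 1 in RES Period 2 (5.68). The Period 1 bulls highest in the set of 15 are those with the outlying CPM of ENSBTAG00000002333. Of the Period 2 bulls, 8 in ADLIB and 3 in RES were above the Period 1 range of the set of 26, and 6 in each diet were above that of the set of 15. These counts are favoured by the rule, which chose the members by the rise of the same bulls, and nothing is read from them.

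The set of 26 moved with the percentage of reads on genes from bull to bull. Over the 10 bulls of a group, the Pearson correlation of its mean level with that percentage was -0.15 in ADLIB Period 1, -0.71 in RES Period 1, -0.76 in ADLIB Period 2 and -0.89 in RES Period 2 (Spearman -0.37, -0.84, -0.76 and -0.82). Without the 2 bulls farthest from the median percentage these were 0.29, -0.68, -0.38 and -0.88, so in ADLIB the relation was not seen in Period 1 and rested in part on those bulls in Period 2. For the set of 15 the Pearson correlations were 0.07, -0.45, -0.0031 and -0.02 in the same order (Spearman 0.05, -0.64, 0.16 and -0.03), and 0.02, -0.42, 0.06 and -0.31 without those 2 bulls. Taken gene by gene, the median correlation was -0.11, -0.68, -0.58 and -0.77 in the set of 26, 0.0024, -0.34, -0.01 and -0.03 in the set of 15, and -0.13, -0.24, -0.27 and -0.32 in all 11716 genes. Each correlation sets 2 values of the same library against each other, and the part of the percentage in the shift of the set was not tested.

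With that percentage as a covariate, the median log2 fold change of the set of 26 went from 0.61 to 0.35 in ADLIB and from 0.55 to 0.83 in RES. Members called went from 8 to 0 of 25 in ADLIB and from 12 to 24 in RES, while calls over all genes went from 270 to 73 and from 2746 to 2790. The set of 15 had medians of 0.89 and 0.87 in ADLIB and of 0.77 and 0.80 in RES without and with the covariate, with 7 and 1 of 15 called in ADLIB and 11 and 8 in RES. For the other 43 rising members the medians were 0.65 and 0.60 in ADLIB and 0.71 and 0.74 in RES. Of the 41 tested, 13 and 5 were called in ADLIB and 29 and 24 in RES. With the library-name block in place of the covariate, 0 of the set of 26 were called in ADLIB. There the block left 0 of the set of 15 and 4 of the others, and 58 of all genes. In RES the block gave 16, 10 and 27. Calls in ADLIB fell over all genes in both fits, so nothing is read from the calls lost in each set. The part of the percentage or of the library-name number in the shift was not tested.

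**Figure D5:**
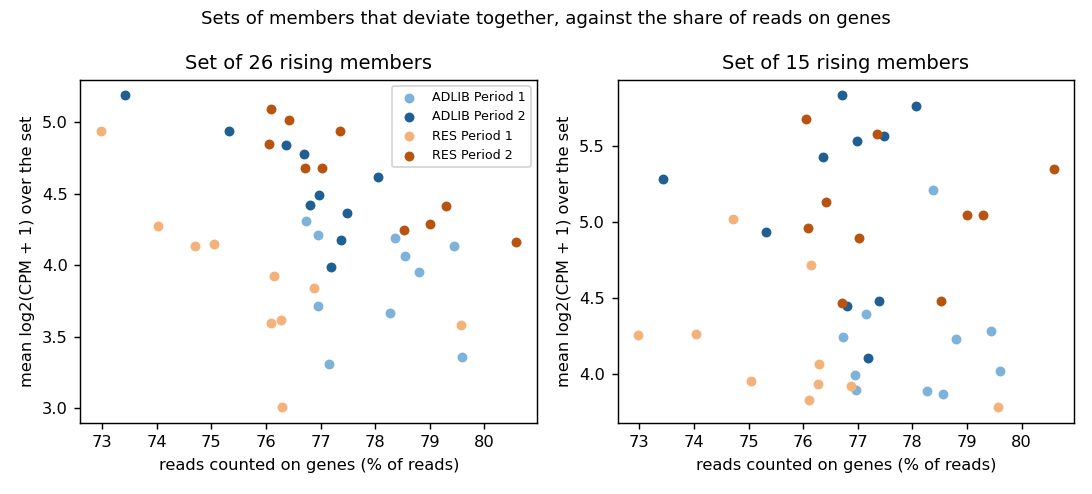
Mean log2(CPM + 1) of each animal over the set of 26 (left) and the set of 15 rising members (right), against the percentage of reads counted on genes, coloured by diet and period (n = 10 per group). On the left, bulls with a lower percentage have higher means in 3 of the 4 groups, and on the right no such relation is seen in either diet of Period 2.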

How the data were processed

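Hepatic RNA of 40 bulls, 10 per diet and period, was analysed from tables the authors deposited. Single-end reads had been aligned to UMD3.1 with TopHat, and the authors used HTSeq to count those mapping uniquely to an Ensembl gene. The deposited read counts are not normalised. A second deposited table gives a signal per gene, the count multiplied by a constant for each animal, for 12150 genes in Period 1 and 12305 in Period 2. Groups and replicate numbers follow the labels. Members and lists were chosen with earlier results of these data known.

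CPM was taken over the sum of gene rows with a pseudocount of 1. Tests on counts used edgeR 4.0.16 under R 4.3.3 (robust quasi-likelihood, TMM, at least 4 reads in every animal fitted), with calls at a Benjamini-Hochberg FDR below 0.05 and a difference of at least 25 %, except for the interaction (FDR alone). The FDR threshold is written as 0.05 % in the methods and was read as 0.05. Period contrasts and interaction were fitted on all 40 animals and the Period 2 diet contrast on its 20. Permutation tests used 100000 resamples and were two-sided. DESeq2 1.42.0, other scalings, filters, pseudocounts, limits, a library-name block, a replicate block, a covariate and omission of each animal were tried as alternatives. The fits were tested on simulated data first. Animals within a group always differed by more than sampling noise (lowest chi-square per degree of freedom 19.0), and the 92 spike-in rows held 0 reads. Rows of reads outside genes and on overlapping genes were left out of library sizes. These rows held 19.4 to 27.0 % of the reads of an animal.

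The members printed were to be those with a symbol and the largest shifts, the fewest and the most reads, the smallest p in Period 2 and list membership. As 0 identifiers matched the 37063 genes of the reference table (ARS-UCD2.0), the lists and marker checks were not run, no sequence is shown, and the rule's fallback of 2 identifiers per direction was used. Reads carry no molecular identifiers, so floors cover counting error only. Samples are separate animals, so p-values measure the spread between bulls.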

Additional observations from a re-analysis of the deposited data

Results flagged for a closer look

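Among 32 comparisons of a bull with the other 9 of its group, 5 had a highest value far from the rest by Dixon's test. Chance would give 1.6 if values were normally distributed. CPM was compared without taking logarithms and need not be so distributed, so nothing is read from the excess. The rising member ENSBTAG00000002333 gave 3 of the 5. Its CPM was 55.2 in ADLIB Period 1 replicate 8, where the nearest bull had 13.1. It was 25.3 in RES Period 1 replicate 5 (nearest 10.8) and 72.5 in RES Period 2 replicate 2 (nearest 41.3). The falling member ENSBTAG00000008294 had 46.3 CPM in ADLIB Period 1 replicate 2, where the nearest bull had 32.5. Reads on genes were 15520237 in ADLIB Period 2 replicate 5, and the next library of that group had 12133068. None of these values is tied to a stated difference in handling.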

How the results depend on the processing

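The 90 members became 235 with a period difference of at least 0.4, 52 with at least 0.6 and 193 with differences taken within library-name numbers. Leaving out each bull in turn gave 75 (without RES Period 1 replicate 1) to 121 (without ADLIB Period 2 replicate 4), and at least 73 members were shared with the 90. Pseudocounts of 2 and 0.5 gave 74 and 116, and group medians 98, of which 53 were shared. In ADLIB the 270 genes called between periods became 801 with total reads only, 439 with DESeq2, 73 with the share of reads on genes as a covariate and 58 with the library-name block. Members called, 31 at first, became 53 with total reads only, 19 with no filter, 8 with the covariate and 4 with the block. In RES all alternatives gave 2458 to 2890 genes and 50 to 62 members. The diet contrast in Period 2 gave 1 gene with the library-name block, 52 with DESeq2 and 14 in a fit of all 40 bulls. Members among them were 0 in each. The interaction gave 629 genes with the covariate, 0 of them members. In that fit, 7 members and 2436 of the 11868 genes had an unadjusted p under 0.05. The cause was not tested. With a replicate block the counts were 245 genes (24 members) in ADLIB, 2771 (61) in RES, 0 (0) for diet in Period 2 and 1156 (0) for the interaction. Same-numbered bulls did not all deviate together. They were compared for the diets of Period 2, the periods of ADLIB, the periods of RES and the diets of Period 1. In that order, their mean correlation was -0.004, 0.033, 0.087 and 0.091, and that of other pairs 0.00052, -0.0038, -0.0097 and -0.010. It was over 0.1 in 4 of 10 same-numbered pairs each, and 1, 1, 3 and 4 of 10 were closest to their own number. Replicate numbers follow the order of the library-name numbers, so same-numbered bulls can share one. As the labels state no pairs, the numbers were not taken as pairs, and these values do not settle whether they are. Signs near 0 turned without any call. In the diet contrast of Period 2, ENSBTAG00000002333 turned to 0.038 with total reads, 7.2e-05 with the 1 CPM filter and 0.23 with the replicate block, ENSBTAG00000016169 to -0.064 with the library-name block and -0.17 with the covariate, and ENSBTAG00000008294 to 0.0051 with total reads and 0.043 with the library-name block. In the interaction, ENSBTAG00000002333 turned to -0.18 with the covariate, ENSBTAG00000016169 to 0.018 with the library-name block and 0.011 with the replicate block, and ENSBTAG00000008294 to 0.0049 with the replicate block. Members with few reads rest on the least depth, and those under 10 CPM were 32.2 % of the 90.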
